A study of Mus musculus with 10 samples.

Results

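The regions described here carried trimethylation of lysine 4 of histone H3 (H3K4me3) in both quiescent and activated neural stem and progenitor cells (NSPCs) but had no peak of open chromatin in any of the 6 ATAC-seq lists used here. They numbered 354 of the 15061 quiescent H3K4me3 peaks on chromosomes 1 to 19 that overlapped an activated H3K4me3 peak, or 2.35% (95% interval 2.11 to 2.61%), out of 16584 quiescent peaks on these chromosomes. The number depends on the lists and thresholds used, with 1227 (8.15%) when the quiescent and activated ATAC-seq lists alone were taken, 754 (5.01%) with ATAC-seq peaks of a −log10 q of 10 or more, and 171 (1.31%) with H3K4me3 peaks of a −log10 q of 10 or more in both states. The regions were chosen by measured values, namely an overlap of at least 1 bp between the H3K4me3 peaks of the 2 states and the absence of any overlap with the 6 ATAC-seq lists. The lack of an ATAC-seq peak is therefore not a result, and with 1 H3K4me3 library per state everything below is a description without a test. All intervals are exact binomial (Clopper-Pearson) intervals that cover counting error only.

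The cells were cultured primary NSPCs, that is both stem cells and progenitors, from C57BL/6 mice at postnatal day 5. The activated medium held FGF2 and EGF at 20 ng/ml each. Quiescent NSPCs were held with 20 ng/ml FGF2 and 25 ng/ml BMP4 in place of EGF, for 4 days by the labels and 72 h by the methods for ATAC-seq. Reactivated NSPCs, measured by ATAC-seq alone, had 4 days of BMP4 followed by 9 to 12 days without it in activating medium. There were 2 ATAC-seq libraries for each of the 3 states, and 1 H3K4me3 library with its own input for quiescent and 1 for activated NSPCs. All 10 genes fixed as NSPC markers, *Sox2* and *Nes* among them, had a shared H3K4me3 region with a peak in all 6 ATAC-seq lists, none of 5 microglial markers had a shared region, and 1 of 5 endothelial markers did. All 8 neuronal markers on these chromosomes, 1 of 3 oligodendrocyte and 3 of 5 astrocyte markers also had one. No marker of any cell type had its transcription start site (TSS) within 1 kb of the 354 regions.

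H3K4me3 is laid down by SET1 and MLL methyltransferases on nucleosomes that flank the start sites of active or poised genes, most of all at CpG-rich promoters. Such promoters usually also have a nucleosome-depleted stretch that the Tn5 transposase of ATAC-seq can enter. A region with the mark and without an ATAC-seq peak is thus the less usual combination. Reads from sequences with many copies in the genome cannot be placed with certainty, so that peak calls there depend on how each assay was aligned.

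Among the regions that contain a protein-coding start of the RefSeq promoter table used here, which does not cover every gene, the promoters of those with the highest quiescent fold enrichment are shown because they are starts of known genes with H3K4me3 and no ATAC-seq peak. They come from RefSeq on GRCm38.p6, each with 250 bases before and 50 after the start, 5′ to 3′ on the gene's strand, with CG dinucleotides in capitals. The sixth by the same order, *Jrkl*, has 122 undetermined bases of 300 in the assembly and is not printed.
Zfp932: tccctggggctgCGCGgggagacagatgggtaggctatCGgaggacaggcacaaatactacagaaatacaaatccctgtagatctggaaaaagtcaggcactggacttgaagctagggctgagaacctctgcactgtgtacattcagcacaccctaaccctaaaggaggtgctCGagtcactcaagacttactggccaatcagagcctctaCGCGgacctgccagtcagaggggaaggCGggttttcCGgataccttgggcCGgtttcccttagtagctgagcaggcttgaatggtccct
Aar2: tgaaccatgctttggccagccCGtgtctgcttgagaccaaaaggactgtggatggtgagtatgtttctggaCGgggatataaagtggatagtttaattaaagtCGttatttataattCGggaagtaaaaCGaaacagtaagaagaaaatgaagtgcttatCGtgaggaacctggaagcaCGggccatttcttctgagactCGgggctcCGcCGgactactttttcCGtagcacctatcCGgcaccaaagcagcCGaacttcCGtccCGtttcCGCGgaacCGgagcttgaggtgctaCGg
Pcgf2: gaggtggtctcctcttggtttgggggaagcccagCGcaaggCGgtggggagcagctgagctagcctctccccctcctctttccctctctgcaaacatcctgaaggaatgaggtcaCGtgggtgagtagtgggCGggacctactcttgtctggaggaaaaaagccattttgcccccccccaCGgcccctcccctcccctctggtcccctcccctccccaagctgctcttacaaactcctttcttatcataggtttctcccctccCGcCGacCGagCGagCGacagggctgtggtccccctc
Bnip1: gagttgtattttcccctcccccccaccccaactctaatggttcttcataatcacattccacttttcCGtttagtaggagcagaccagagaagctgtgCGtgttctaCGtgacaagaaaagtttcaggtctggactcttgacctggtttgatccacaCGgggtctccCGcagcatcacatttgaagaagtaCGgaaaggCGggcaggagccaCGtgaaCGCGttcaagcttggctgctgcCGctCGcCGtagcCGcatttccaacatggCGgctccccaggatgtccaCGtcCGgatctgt
Nfic: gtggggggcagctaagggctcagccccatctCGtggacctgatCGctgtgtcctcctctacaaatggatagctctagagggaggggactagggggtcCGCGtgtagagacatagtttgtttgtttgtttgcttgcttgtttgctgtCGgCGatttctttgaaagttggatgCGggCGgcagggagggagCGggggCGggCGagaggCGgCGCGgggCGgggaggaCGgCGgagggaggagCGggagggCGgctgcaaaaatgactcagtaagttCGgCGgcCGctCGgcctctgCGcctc

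These promoters lie at chr5:109996260-109996559 on the plus strand for *Zfp932*, chr2:156547326-156547625 (plus) for *Aar2*, chr11:97699599-97699898 (minus) for *Pcgf2*, chr17:26780829-26781128 (plus) for *Bnip1* and chr10:81427124-81427423 (minus) for *Nfic*. They held 9, 19, 10, 17 and 24 CG dinucleotides in that order. The observed over expected CpG ratio of the 300 bases was 0.41 at *Zfp932*, 1.06 at *Aar2*, 0.36 at *Pcgf2*, 0.78 at *Bnip1* and 0.90 at *Nfic*. The set therefore spans promoters poor and rich in CpG. Over all 50 RefSeq promoters whose start lay inside one of the regions, from 47 genes, the median ratio was 0.71 (quartiles 0.40 and 0.93). It was 0.80 over the 12867 promoters with a start inside other shared H3K4me3 regions and 0.39 over all 31396 promoters in the table for these chromosomes.

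The 50 promoters held none of the clustered protocadherins, the largest gene group at the regions, so neither the CpG ratios above nor the motif counts cover it. Short sequence elements were counted in the same 300-base windows on both strands, with no 2 of the motifs nested in each other. The GC box (GGGCGG) was in 26 of the 50 promoters (52%), in 35.98% of all promoters and in 68.9% of those in other shared regions. The ETS letters CCGGAAG were in 1 of the 50 (2%), against 9.00% of all promoters and 18.04% of those in other shared regions. The CCAAT box (CCAAT) was in 28%, against 37.3% of all and 37.3% of the other marked promoters. The TATA box (TATAAA) was in 14%, 13.6% and 5.74%, and the E-box (CACGTG) in 10%, 7.14% and 10.3%, in the same order.

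H3K4me3 at the regions was weak, and it was weak in both lists. The value given is the fold enrichment of the broad peak over the library's own input. Its quiescent median was 5.66 (quartiles 4.08 and 9.19) against 32.5 (14.2 and 44.0) in the 14707 shared regions that had an ATAC-seq peak. In the activated list the medians were 5.83 and 30.2. The median region stood at percentile 18.9 of the quiescent and 15.2 of the activated list. The regions were also narrower in the quiescent list, with a median width of 602.5 bp against 1885 bp. A narrow region has fewer bases in which to meet an ATAC-seq peak, so this width is tied to the rule. Of the 354, 144 (40.7%) had a quiescent −log10 q under 10, against 8.07% of the others.

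The level was higher the more ATAC-seq lists had a peak in the region. The median quiescent fold enrichment was 5.90 in the 204 regions with a peak in 1 list, 7.74 in the 732 with 2, 8.98 in the 545 with 3, 9.28 in the 690 with 4 and 13.6 in the 919 with 5, and it reached 36.7 in the 11617 with all 6. Regions without a list were thus next to those with 1, whose quartiles they largely shared. Median width rose along with the level, from 602.5 bp without a list and 613.5 bp with 1 to 2116 bp with all 6. The parts of width and level were not separated. Of the 204 regions with 1 list, 108 and 80 had it from the reactivated libraries 1 and 2, and 2 to 5 from each of the other 4. The reactivated lists were also the longest, with 106586 and 107137 rows against 47323 to 60881.

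**Figure D1:**
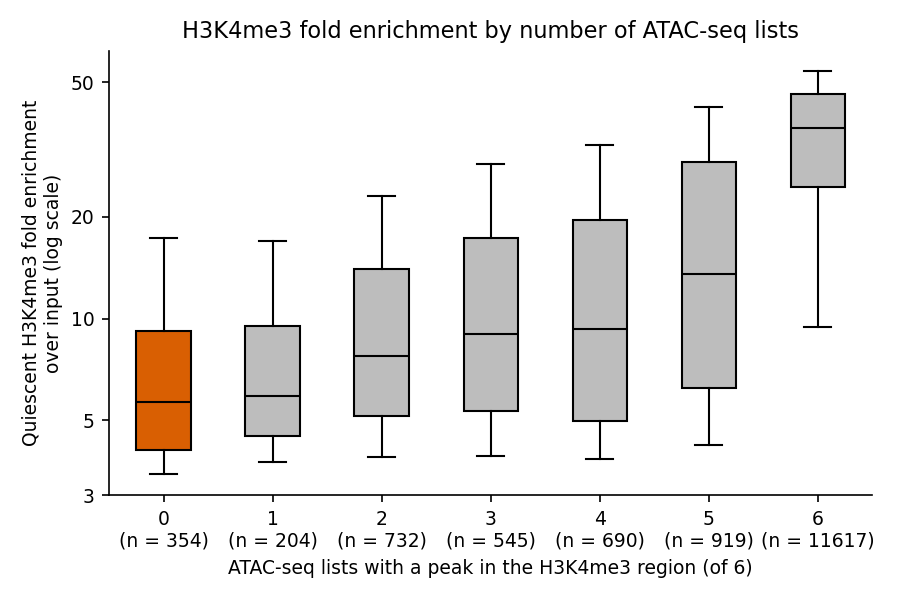
Quiescent H3K4me3 fold enrichment over input (log scale) of the shared regions, by the number of ATAC-seq lists with a peak in the region. Lines are medians, boxes quartiles and whiskers the 10th and 90th percentiles; the 354 regions with 0 lists (orange) have a median of 5.66 and the 11617 with all 6 lists one of 36.7.

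By decile of quiescent fold enrichment over all shared regions, 161 of 1506 regions (10.7%) had no ATAC-seq peak in the lowest decile, 107 (7.10%) in the next and 51 (3.39%) in the third. In the 5 upper deciles together, 7 of 7531 regions had none. The 2 lowest deciles held 268 of the 354.

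Only part of the regions were promoters. A TSS lay within 1 kb of 152 of the 354 (42.9%, 37.7 to 48.3%), against 85.5% (84.9 to 86.1%) of the other shared regions. Of the rest, 25 (7.06%) met an exon, 53 (14.97%) an intron alone and 124 (35.03%) lay between genes, where the others had 1.75%, 5.09% and 7.67%. A protein-coding gene started within 1 kb of 104 regions (29.4%, against 81.2%). The difference was smaller beside marked regions of like strength. Among the 2048 other shared regions inside the quartiles of fold enrichment of the 354, 49.3% (47.1 to 51.5%) lay at a TSS, and among the 176 regions inside these quartiles 40.9% (33.6 to 48.6%). These 2 sets were not matched for width, with quiescent medians of 749 bp and 579 bp.

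Processed pseudogenes, copies of messenger RNAs put back into the genome, were frequent among the starts. They started within 1 kb of 19 regions (5.37%), against 106 others (0.72%), with transcribed ones at 5 more entries (1.41%, against 0.24%). A TSS of a pseudogene of any type, unprocessed ones included, without a protein-coding one lay at 25 regions (7.06%), against 122 of 14707 others (0.83%). At 16 of these 25 regions fewer than 50% of the sequence tiles were unique.

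**Figure D2:**
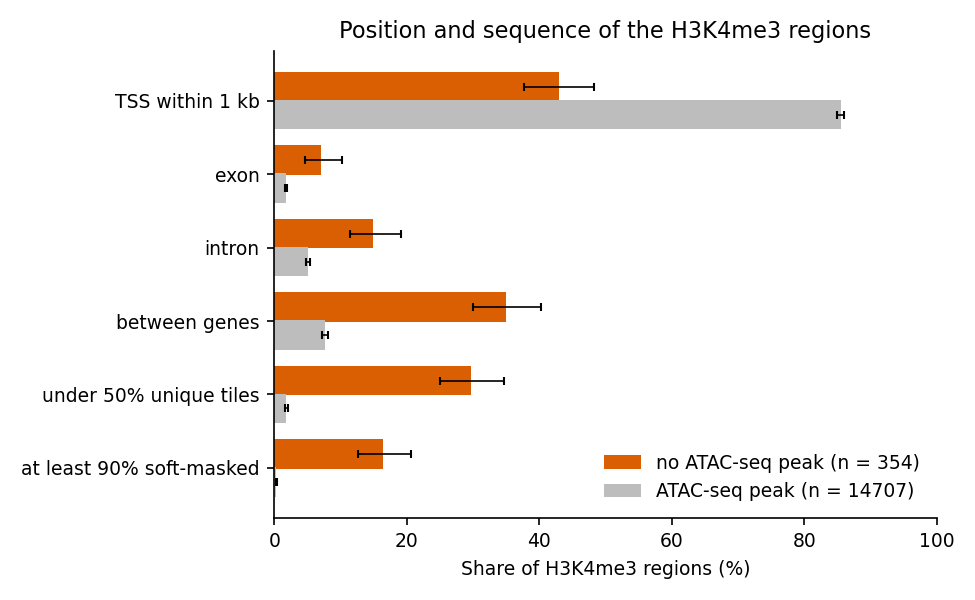
Share of regions (%) by position and sequence for the 354 regions without an ATAC-seq peak (orange) and the 14707 with one (grey), with exact binomial 95% intervals as error bars. A TSS lies within 1 kb of 42.9% and 85.5%, and under 50% of 100-base tiles are unique in 29.7% and 1.79%.

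The CpG content varied widely among the regions. The observed over expected CpG ratio had a median of 0.55 (quartiles 0.33 and 0.77) against 0.61 (0.49 and 0.71) in the other shared regions, and GC content had a median of 50.8% against 53.7%. The range was from 0 to 1.18, so that CpG-poor and CpG-rich sequences both occurred. Within 1 kb of a TSS the medians of the ratio were 0.61 for 152 regions and 0.62 for 12573 others. In the 500 bp around the middle of the promoter regions they were 0.61 and 0.72. Regions inside the quartiles of strength had 0.53, and the others of like strength 0.48.

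Many of the regions were repeated sequence. Each region was cut into 100-base tiles, and a tile was unique if it occurred once in the genome without mismatch. Fewer than 50% of the tiles were unique in 105 regions (29.7%, 24.9 to 34.7%), against 263 of the other shared regions (1.79%, 1.58 to 2.02%). No tile was unique in 64 (18.1%, against 0.84%). At least 90% of the sequence was soft-masked as repeat in 58 (16.4%, against 0.30%). Among regions of like strength the shares with under 50% unique tiles were 32.4% of 176 and 4.49% of 2048. By the number of ATAC-seq lists with a peak, this share was 20.1% with 1 list, 7.10% with 2 and 0.92% with all 6. The ATAC-seq reads were 100 bases and the H3K4me3 reads 150 bases long, both paired. The paper gives ATAC-seq depth in unique reads mapped with high quality, and names ATAC-seq-specific quality control before peak calling. It states neither for H3K4me3. The part of read placement and read filtering in the missing peaks was not tested.

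The share without an ATAC-seq peak was lower the more of a region was unique. It was 34.2% of the 187 shared regions with no unique tile, 23.9% of the 113 with up to 25%, 21.1% of the 71 with over 25 to 50%, 16.4% of the 110 with over 50 to 75%, 2.35% of the 892 with over 75% and 1.53% of the 13688 with unique tiles throughout. Those last were still 209 of the 354 regions. Among regions with at least 50% unique tiles, 8.22% of the lowest decile of strength, 5.01% of the next and 2.67% of the third had no peak. Among those with fewer, the shares were 53.0%, 33.9% and 26.7%.

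**Figure D3:**
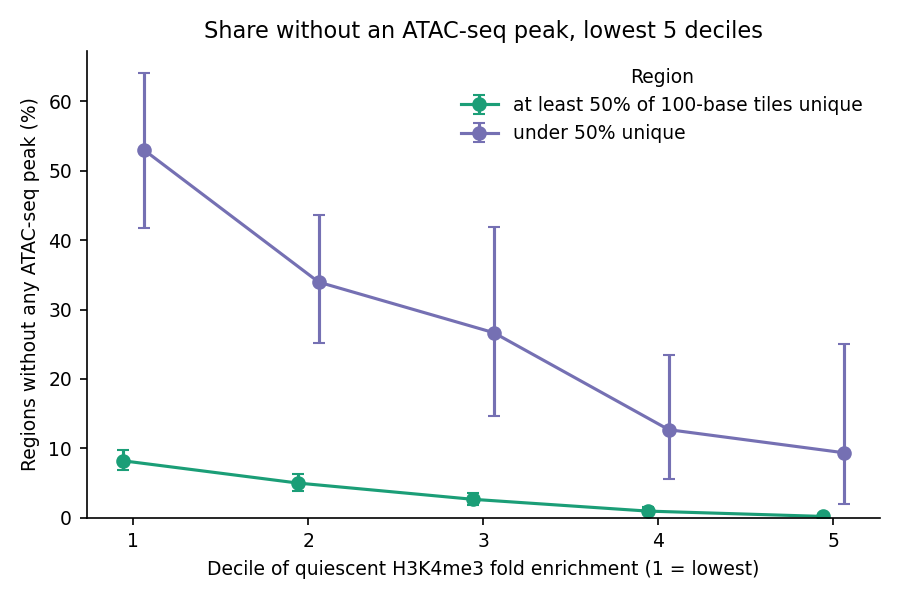
Share of shared H3K4me3 regions without any ATAC-seq peak (%), by decile of quiescent fold enrichment (1 is the lowest, deciles 1 to 5 of 10 drawn), for regions with at least 50% (green) and under 50% (purple) unique 100-base tiles. Error bars are exact binomial 95% intervals; in decile 1 the shares are 8.22% and 53.0%.

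Several regions were copies of each other. With an identity of at least 80% over at least 50% of the shorter region, 139 of the 354 (39.3%) fell into 19 families, so these regions are not independent. The largest family held 33 regions on 14 chromosomes with a median quiescent fold enrichment of 4.72, and the next 30 regions, also on 14 chromosomes, with a median of 6.74 and soft-masked throughout at the median. A family of 9 lay on chromosome 12 alone and was stronger, with a median of 16.5. It held starts of predicted genes such as *Gm40847* and *Gm48037*. A family of 4 lay at 5S ribosomal RNA genes, *n-R5s106*, *n-R5s109*, *n-R5s127* and *n-R5s129* on chromosome 8, with quiescent fold enrichments of 3.81, 10.05, 6.22 and 7.50. Regions with mostly unique tiles also occurred in families, because a tile counts as unique when its copies differ by a mismatch. A family of 16 on 9 chromosomes had medians of 95% unique tiles and 82.6% soft-masked sequence. The set of mostly unique regions is thus not free of repeats. No region matched the mitochondrial genome.

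The regions with the highest quiescent fold enrichment were of several kinds. The strongest was at *Gm1821* (chr14:46084120-46084955), a processed pseudogene, with 75.7 in quiescent and 89.8 in activated NSPCs, the top value of the activated list. There 20% of the tiles were unique. Next came an intronic region near *Vmn2r89*, a vomeronasal receptor gene (chr14:51481356-51483218), with 40.6 and 35.6, unique for 98.6% of its tiles and 123 kb from the nearest ATAC-seq peak. Despite the unique tiles, a family of 3 regions on 3 chromosomes included a region nearest *Vmn2r89*. An intronic region nearest *Slc15a2* (chr16:36768307-36770314) had 31.2 and 35.7 and one between genes near *Map3k20* (chr2:72273546-72275517) had 30.8 and 33.0. Both of these were over 99% soft-masked and belonged to the family of 30.

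The other 6 of the 10 strongest were protein-coding promoters. *Zfp932*, a zinc finger gene (chr5:109995838-109998272), had 38.8 in quiescent and 33.9 in activated NSPCs. *Aar2*, whose protein takes part in assembly of the U5 spliceosomal particle (chr2:156547059-156548764), had 38.8 and 32.4. *Pcgf2*, a Polycomb repressive complex 1 subunit (chr11:97698460-97700942), had 35.7 and 22.3. *Bnip1*, a SNARE protein of the endoplasmic reticulum (chr17:26780584-26781984), had 33.3 and 40.5. At *Aar2*, *Pcgf2* and *Bnip1* all tiles were unique. The nearest ATAC-seq peak was 14.8 kb from the *Aar2* region, 1.48 kb from *Pcgf2*, 25.1 kb from *Zfp932* and 63.8 kb from *Bnip1*. The numbers of the ATAC-seq peaks on either side ran on without a skip in all 6 lists at each of the 10.

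The remaining pair, *Pcdha11* and *Pcdhb1*, belongs to the clustered protocadherins on chromosome 18, for which no promoter sequences were used here. These are adhesion molecules of which single neurons express different sets, each variable exon of the alpha, beta and gamma clusters having its own promoter. With gaps of at most 100 kb between neighbours, the 354 regions formed 301 runs, 272 of them of a single region. The largest run was 10 regions over 225 kb (chr18:37264562-37490039), all at *Pcdhb* genes. The next were 7 regions at *Pcdha* genes over 90.7 kb and 6 at *Pcdhga* and *Pcdhgb* genes over 92.0 kb.

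Of 56 clustered protocadherin genes, 27 had a shared H3K4me3 region at the TSS, and at 22 of these 27 it had no ATAC-seq peak in any list. All 6 marked alpha genes, 10 of 11 beta genes and all 6 gamma A and B genes were of this kind. The exception among the beta genes was *Pcdhb16*, with a peak in 1 list. The marked C-type genes, *Pcdhac1*, *Pcdhac2*, *Pcdhgc3* and *Pcdhgc4*, which differ from the others in sequence and are expressed in most neurons, had peaks in all 6 lists. In the list of axon guidance and adhesion genes, all 88 marked genes other than clustered protocadherins had an ATAC-seq peak in their region. The split into protocadherins and other genes was made after the values were seen.

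Most protocadherin regions had the higher value in quiescent NSPCs, as had 9880 of all 15061 shared regions. *Pcdha11* (chr18:37005053-37005982) had a fold enrichment of 37.1 in quiescent and 25.4 in activated NSPCs. *Pcdhb1* had 29.8 and 16.8, *Pcdha12* had 26.2 and 13.5, and *Pcdha1* had 23.7 and 17.7. Weak regions occurred beside them, such as *Pcdhga5* with 4.12 and 4.57 and *Pcdhgb1* with 4.35 and 4.47. Over the 23 regions at these genes the quiescent values ran from 4.12 to 37.1 with a median of 8.40. The activated value was lower in 18 of the 23, with a median log2 ratio of −0.35 against −0.11 for all shared regions. It was lower by over 1.5-fold in 3 of the 23, *Pcdha12*, *Pcdhb1* and *Pcdhb2*, where 6.68% of all shared regions were. All 7 alpha regions were lower, but they formed a family of 7 with like sequence. *Pcdhb4*, *Pcdhb6*, *Pcdhb10* and *Pcdhb11* formed a family of 4, and *Pcdhgb6* and *Pcdhgb7* a family of 2. The counts over these regions are therefore not counts of independent ones. *Pcdhac1*, which had ATAC-seq peaks, had 6.77 and 5.08. *Pcdhac2* had 45.9 and 48.9. At least 75.9% of the tiles of each of the 23 regions were unique, and the distance to the nearest ATAC-seq peak had a median of 65.3 kb.

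**Figure D4:**
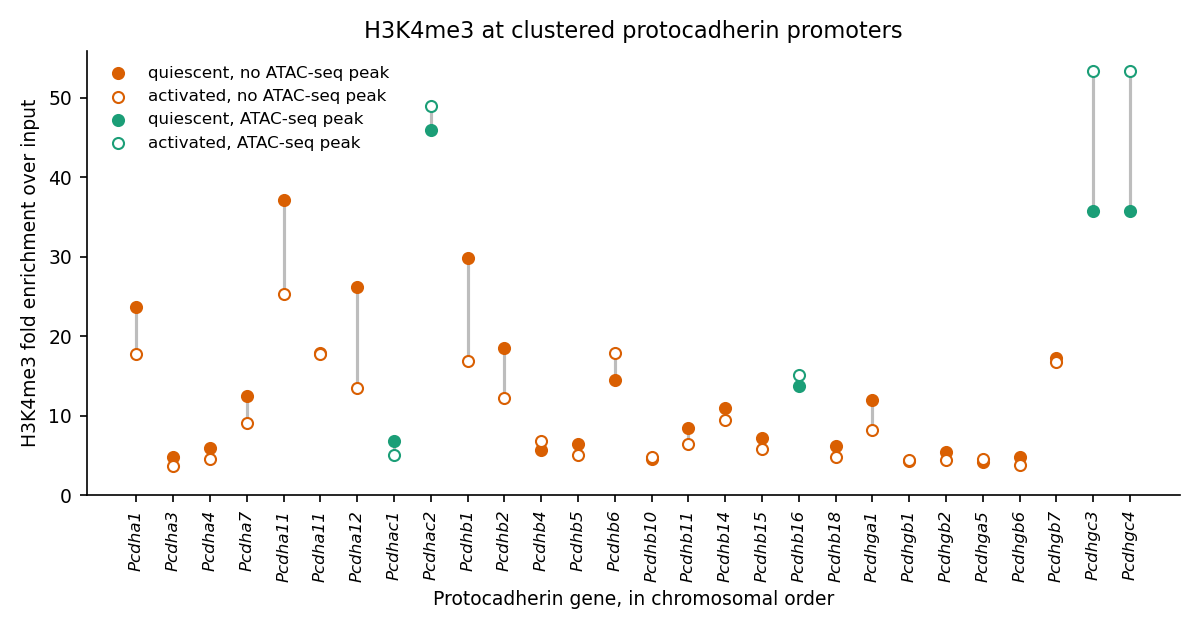
H3K4me3 fold enrichment over input (linear scale) at each clustered protocadherin gene with a shared region, in chromosomal order, in quiescent (filled) and activated (open) NSPCs. Orange regions have no ATAC-seq peak and green ones have at least 1; *Pcdha11* has 2 regions, *Pcdhgc3* and *Pcdhgc4* share 1, and the highest orange value is 37.1.

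Across all 354 regions the change between states was small. The log2 ratio of activated to quiescent fold enrichment had a median of 0.025 (quartiles −0.24 and 0.28), against −0.11 (−0.31 and 0.07) for the other shared regions and −0.11 for all of them. The activated value was the higher one in 188 regions (53.1%) and in 33.9% of the others. It was the higher one in 113 of the 249 with mostly unique tiles (45.4%, against 33.4%), so the majority turned there. Among the 210 regions with a quiescent −log10 q of at least 10 it was the higher one in 83 (39.5%, against 31.8% of the others). That filter is on the quiescent library alone and so favours lower ratios, and no change of direction is read from it. With a −log10 q of 10 or more in both states the median log2 ratio was −0.032. Each of the 354 overlapped a single activated peak, so no choice between peaks was needed. The fold enrichments are not scaled between the 2 libraries, and with 1 library each a difference of libraries and one of states cannot be told apart.

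Past a 1.5-fold ratio, 22 of the 354 (6.21%) were higher in activated NSPCs, where 1.46% of all 15061 shared regions were, and 13 (3.67%) were lower, where 6.68% of all were. Among regions of like strength the gap was smaller for higher values, with 7.39% of 176 regions and 3.27% of 2048 others higher. There 3.41% and 8.84% were lower. Of the 22 regions that were higher, 14 were among the 105 with under 50% unique tiles, of which none was lower. Among the 249 with more unique tiles, 8 (3.21%) were higher and 13 (5.22%) lower. The median log2 ratio was 0.19 in the repeated and −0.055 in the unique regions. Repeats in the other shared regions also leaned to the activated state, with 162 of 263 (61.6%) above 0, against 33.4% of the unique ones. When ratios were centred on the median of all shared regions, 37 of the 354 were higher and 5 lower, beside 2.92% and 3.39% of all.

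**Figure D5:**
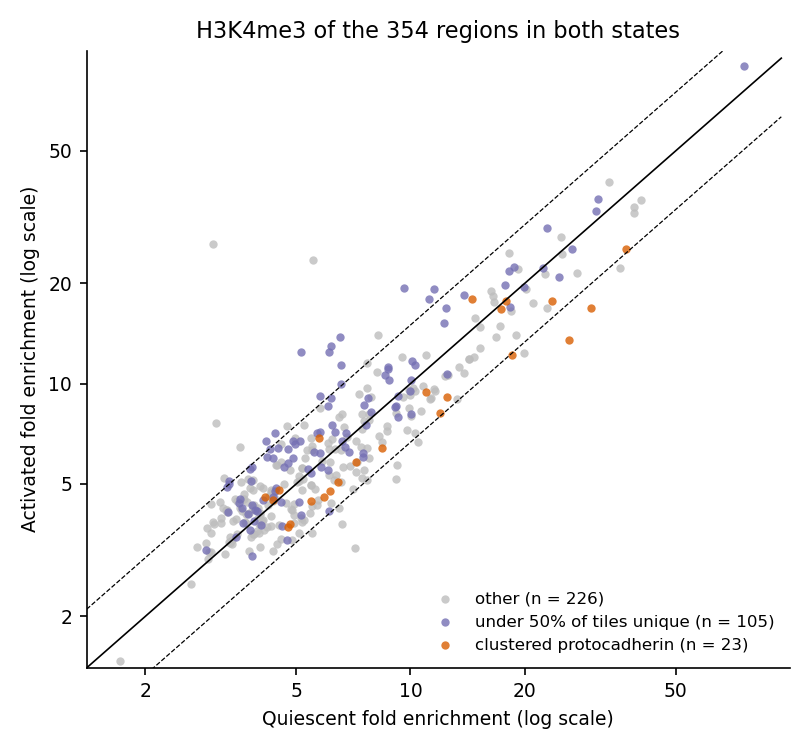
Fold enrichment of H3K4me3 over input in quiescent (horizontal) and activated (vertical) NSPCs for each of the 354 regions, both on log scales, with equality as a solid line and 1.5-fold as dashed lines. Of the 105 regions with under 50% unique tiles (purple) 14 lie above the upper dashed line and none below the lower one, and of the 23 clustered protocadherin regions (orange) 3 lie below it.

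Among regions with a quiescent −log10 q of at least 10, the highest ratio was at *Plxdc1*, a transmembrane receptor gene (chr11:97986102-97986741), from 5.52 to 23.5. The activated peak there was 3719 bp wide against 640 bp in quiescent NSPCs, and unlike the quiescent one it met an ATAC-seq peak. The next 4 were pseudogenes or predicted genes with few unique tiles. *Gm49141* went from 6.53 to 13.8, *AC133517.1* from 6.19 to 13.0, *Amd-ps4* from 6.11 to 12.4 and *Gm13370* from 9.60 to 19.4. Below that −log10 q, the region 990 bp from a start of *Cdon*, a Hedgehog co-receptor, had 3.02 and 26.2, again under an activated peak of 3948 bp that met ATAC-seq peaks. In all, the activated peak met an ATAC-seq peak at 17 of the 354 regions (4.80%).

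Under the same filter, which is on the quiescent library alone and favours low ratios, the lowest ratios were at unique sequence. A region between genes nearest *AC141633.1* (chr18:39900914-39901490) went from 7.12 to 3.21, *Pcdha12* and *Pcdhb1* followed, and a region 2.56 kb from a start of *Tfap2b*, an AP-2 transcription factor gene, went from 9.16 to 5.17. *Mvp*, which encodes the major vault protein, went from 6.59 to 3.79.

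The widest region was in the HoxA cluster, at the noncoding genes *Hoxaas3* and *Gm15050* and the gene *5730596B20Rik* (chr6:52172555-52176703). It measured 4149 bp, had 16.6 in quiescent and 17.6 in activated NSPCs, and lay 13.5 kb from an ATAC-seq peak. *Jrkl*, with 3425 bp, had 17.2 and 14.9. A region over an exon nearest *Macf1*, a cytoskeletal linker gene (3397 bp, 3.40 and 3.87), one at *Prob1* (2915 bp, 3.97 and 3.96) and one at the predicted gene *Gm21738* (2697 bp, 1.71 and 1.47) were the other three.

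By gene list, 106 of the 12683 protein-coding genes with a shared H3K4me3 region at a TSS (0.84%) had one of the 354, and 88 of the 106 had no other shared region at a TSS. Among developmental transcription factors, 3 of 163 did. These were the homeobox gene *Lbx1* with 15.2 and 14.8, the T-box gene *Tbx15* with 4.30 and 3.99 and the forkhead gene *Foxe1* with 3.74 and 3.15. Secreted factors had 1 of 86, the chemokine gene *Cxcl16* (12.3 and 10.5). Ion channels had 1 of 122, the potassium channel *Kcna7* (4.94 and 4.02), and neurotransmitter receptors 1 of 73, the galanin receptor *Galr3* (5.71 and 4.48).

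Synaptic and neuronal genes had 2 of 83. *Slc32a1*, the vesicular transporter of GABA and glycine, had 4.06 and 3.85, and *Nrxn2*, a presynaptic adhesion molecule, had 3.14 and 4.42 with an ATAC-seq peak 9 bp away. Zinc finger genes had 3 of 400, *Zfp932*, *Zfp296* (4.08 and 3.88) and *Zfp984* (2.97 and 3.11), and DNA replication and cell cycle genes 1 of 104, *Plk5* (5.20 and 5.19). None of 64 marked histone genes, 76 ribosomal protein genes, 94 nuclear genes of oxidative phosphorylation or 45 proteasome genes had one. These housekeeping lists and most others stood at or below 2.41%, and the adhesion list, with 22 of 115 (19.1%), was above them, with protocadherins for all 22.

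The distance to open chromatin varied among the regions. The median distance to the nearest ATAC-seq peak was 5.91 kb, and 129 (36.4%) lay more than 10 kb away. At the near end 51 (14.4%) had a peak within 500 bp and 18 within 50 bp. Another H3K4me3 region that had an ATAC-seq peak lay within 2 kb of 34 (9.60%) and within 5 kb of 73 (20.6%). Among regions with mostly unique tiles and no TSS, 28 were within 5 kb of such a neighbour and 97 were not. The median fold enrichments of these 2 sets were 4.91 and 5.09, and their CpG ratios 0.39 and 0.42.

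At the edge of the rule, the region just inside was the one nearest *Arhgef26* (chr3:62271272-62271739), which adjoined an ATAC-seq peak without sharing a base and had 4.00 and 3.24. The next were 2 bp and 4 bp from a peak, near *Gm15671* (3.86 and 4.33) and *Atg7* (5.14 and 4.03). Just outside were a region near *Gm13306* that shared 2 bases with a peak of 1 list (8.21 and 6.73), and regions near *Sp2* (4.25 and 3.54) and *n-R5s101* (6.91 and 5.99) that shared 3. In all, 34 other shared regions had at most 50 bases in ATAC-seq peaks.

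The peak numbers in the lists bear on 10 of the regions. The ATAC-seq lists each skip 84 to 94 peak numbers, whereas the H3K4me3 lists skip none. At 10 of the 354 regions (2.82%) the numbers of the flanking peaks skipped in at least 1 ATAC-seq list, and at 7 in all 6. At 56 of the other shared regions (0.38%) they skipped in at least 1. The 7 included the regions with the highest −log10 q of the 354, *Gm10800* with 7233 at a fold enrichment of 2.64 and *Gm27940* with 2459 at 20.2, and also *Gm21738*, *Sfi1* and *Tmem267*. The peaks that bore these numbers were not analysed here, and a missing ATAC-seq call at these 10 regions cannot be told apart from a row left out. Without them 344 regions remained.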

How the data were processed

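ATAC-seq (2 libraries each of quiescent, activated and reactivated NSPCs) and H3K4me3 ChIP-seq (1 library per state) were taken as lists of peaks. The authors aligned reads to mm10 with Bowtie2 2.2.5, removed duplicates with Picard 1.88 and SAMtools 1.3.1, and called ATAC-seq peaks per library with MACS 2.1.1 at an FDR of 0.05, after reducing the reads of the reactivated libraries. Their ATAC-seq calls also followed quality control steps specific to that assay. For H3K4me3, input served as control for their broad calls (q 0.05, broad cutoff 0.01). The deposited fold enrichment is a ratio to the background or input of the same library, not scaled between libraries. Both −log10 values, of p and of q, were deposited as MACS gave them and grow with depth. The deposited score, 10 times the −log10 q, and the summit offset were not used. Read depth is not given in the lists, so precision was stated for counts of regions alone.

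The members and the gene lists were chosen with earlier results of these data known. Activated values came from the activated peak sharing the most bases. TSSs were those of GENCODE M21, and the position classes were applied in the order promoter (1 kb), exon, intron, between genes. Tiles of 100 bases, taken every 25 bases, were looked up on both strands of GRCm38.p6. All 31396 RefSeq promoter sequences equalled that genome at their coordinates. Families were made with BLAST+ 2.17.0 (E-value 1e-10). Regions named were the 10 strongest, the 5 with the highest and the 5 with the lowest state ratio (−log10 q of at least 10), the 5 widest, 3 on either side of the rule's edge, up to 4 genes per list by strength and the largest run. Promoters printed were those of the 6 strongest regions outside chromosome 18 that contain a protein-coding RefSeq start, except *Jrkl*. *Cdon*, the other protocadherins, the members of families and those at skipped peak numbers were named after their values were seen. The classification (2000 simulated regions), distances (500) and tiles (200) were tested on simulated data and were right for 100%, and bedtools 2.31.1 gave the same 354 regions. Python 3.11.15 with numpy 2.4.6, pandas 2.3.3, scipy 1.17.1 and matplotlib 3.10.9 was used. Alternatives were stricter or wider overlaps, other lists, windows and tiles, and each ATAC-seq list left out. 2 were added after the data were seen, the omission of regions at skipped numbers and the use of mostly unique regions alone.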

Additional observations from a re-analysis of the deposited data

Results flagged for a closer look

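Some H3K4me3 regions outside the comparisons also lacked an ATAC-seq peak. On chromosome X, 15 of 529 shared regions (2.84%) had none, with a median quiescent fold enrichment of 6.22. On unplaced and unlocalized contigs, 4 of 17 shared regions had none. Of the 1523 quiescent peaks on chromosomes 1 to 19 that overlapped no activated peak, 254 (16.7%) had none, with a median fold enrichment of 3.48. On chromosome Y it was 3 of 12. The absence of an ATAC-seq peak is what the rule selects, so these counts are values without a test.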

How the results depend on the processing

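No paired analysis was possible because every result is a count, a share or a median from 1 H3K4me3 library per state and comes from no test. Of the alternatives, the number of regions followed the ATAC-seq lists most: it was 754 (5.01% of shared regions) with ATAC-seq peaks of a −log10 q of 10 or more and 1227 (8.15%) with the quiescent and activated lists alone. With each ATAC-seq list left out in turn it ranged from 356 to 462 regions (2.36 to 3.07%), with 462 (3.07%) without reactivated library 1 and 434 (2.88%) without library 2. It was 171 (1.31%) with H3K4me3 peaks of a −log10 q of 10 or more in both lists, 2.01% with ATAC-seq peaks extended by 500 bp (303 regions), and 1.69% (249 regions) for mostly unique regions. Merged quiescent and activated peaks gave 336, activated peaks as units 382. The cause was not tested.

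The median quiescent fold enrichment was 6.51 within 1 kb of a TSS. The median log2 ratio was 0.14 after centring, −0.032 with a −log10 q of 10 or more in both states and −0.055 in mostly unique regions, so its sign depends on these choices. The regions higher in activated NSPCs then numbered 37, 12 and 8, and those lower 5, 8 and 13; past a 2-fold ratio they numbered 8 and 1. The promoter share was 29.4% for protein-coding TSSs, 49.5% with a −log10 q of 10 or more, 49.8% in mostly unique regions, and 42.6 to 47.0% without each ATAC-seq list. The CpG ratio was 0.61 within 1 kb of a TSS. Tiles of 50 bases put 35.3% of the regions under 50% unique. The neighbour share was 20.6% within 5 kb, and secreted factors had 2 genes with a window of 2 kb. Read depth is not given in the lists, and its part in the missing ATAC-seq calls was not tested.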
